A study of Mus musculus with 131 samples.

Results

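The 9 genes described here make bile acids from cholesterol, attach them to amino acids and take them back up from the blood, all in the hepatocyte. They are Cyp7a1, Cyp7b1, Cyp8b1, Cyp27a1, Hsd3b7, Akr1d1, Baat, Slc27a5 and Slc10a1, chosen by name from the 24397 genes of an expression table, together with the methylation tiles and chromatin peaks that lie inside each gene or within 5 kb of it. All 9 were found and all 9 passed the filter on low expression. RNA-Seq, reduced representation and whole-genome bisulfite sequencing (RRBS and WGBS), ATAC-Seq, ChIP-Seq and 5hmC profiling were carried out on mouse liver cells, on a C57Bl background. The DKO mice carried floxed alleles of Tet2 and Tet3, which encode enzymes that oxidise methylated cytosine, and received an AAV8 virus with Cre under the Tbg promoter, which is active in hepatocytes, at 1 day or at 3 weeks of age. They were examined at 15 weeks. Injected controls were WT mice that received the same virus at the same age and were also examined at 15 weeks, and uninjected WT mice were taken at 1, 3 and 15 weeks. WGBS and histone marks of DKO were from injection at 1 day, and ATAC-Seq and HNF6 ChIP-Seq from liver of WT and of mice that lost Tet2 and Tet3 in hepatocytes after birth, with no age in the sample labels. The authors describe the ATAC-Seq samples as adult hepatocytes of 15 weeks, with the deletion at 1 day. Also used were hepatocytes that lost the insulin receptor after birth (no age in the sample labels), WT hepatocytes of 1 week kept in vitro, WT hepatocytes of 20 days for 5hmC, and 1 library each of WT fat (25 weeks) and WT neutrophils (36 weeks). The authors compared the mice without the insulin receptor with WT at 15 to 20 weeks. The deletion of Tet2 and Tet3 is limited to hepatocytes, and other liver cells keep both genes.

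The liver removes cholesterol by turning it into bile acids. In the classical route Cyp7a1 adds the first hydroxyl group and sets the pace of the pathway. In the alternative route Cyp27a1 oxidises the side chain first and Cyp7b1 then hydroxylates the oxysterol. Hsd3b7 and Akr1d1 modify the sterol rings, and Cyp8b1 adds the hydroxyl group that turns the product into cholic acid, so that it sets the make-up of the bile acid pool. Slc27a5 and Baat couple bile acids to coenzyme A and then to taurine or glycine. Slc10a1, also called NTCP, carries conjugated bile acids from portal blood into the hepatocyte.

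Expression was available for 18 hepatocyte libraries, 1 from WT at 1 week, 3 each from WT at 3 and 15 weeks, 3 from each group of injected controls, 3 from DKO injected at 1 day and 2 from DKO injected at 3 weeks, as FPKM (fragments per kilobase of transcript, scaled to library size), which adjusts for gene length. Read depth is unknown because the table holds no counts. The targeted genes moved differently after the 2 deletions. Tet2 was 2.13, 1.63 and 0.890 FPKM in controls injected at 1 day and 4.08, 2.82 and 3.16 FPKM in DKO, and Tet3 was 2.11, 2.55 and 1.68 against 2.78, 1.74 and 2.65 FPKM. Tet2 rose (0.79 on the log2 scale, limma adjusted p = 0.0173) and Tet3 did not pass. After injection at 3 weeks both genes were below every control in both DKO libraries, Tet2 at 1.84 and 0.824 against 2.56, 2.08 and 2.99 FPKM (limma adjusted p = 0.108) and Tet3 at 1.67 and 1.56 against 2.55, 2.89 and 2.44 FPKM (limma adjusted p = 0.0985). These values cover the whole gene and cannot show the loss of a floxed exon. The hepatocyte marker Apoa1 lay between 4367 and 8657 FPKM, while Alb is listed at 0 in all 18 libraries. Summed markers reached at most 13.6 FPKM for Kupffer cells, 22.8 FPKM for endothelial cells and 62.4 FPKM for stellate cells. The hepatocyte list summed to 23430 to 41840 FPKM. The single library of 1 week also held 1293 FPKM of summed erythroid markers, 121 FPKM of cholangiocyte markers and 43.0 FPKM of other leukocyte markers. All 3 libraries of WT at 3 weeks and the third control injected at 3 weeks expressed Xist, at 48.0 to 88.1 FPKM, with a sum of Y-linked transcripts of at most 0.0741 FPKM. The other 14 libraries had 30.8 to 42.1 FPKM of Y-linked transcripts. Age and sex therefore cannot be told apart in the comparison of 3 with 15 weeks, and values of that control are given with and without it where a result rests on it.

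**Figure D1:**
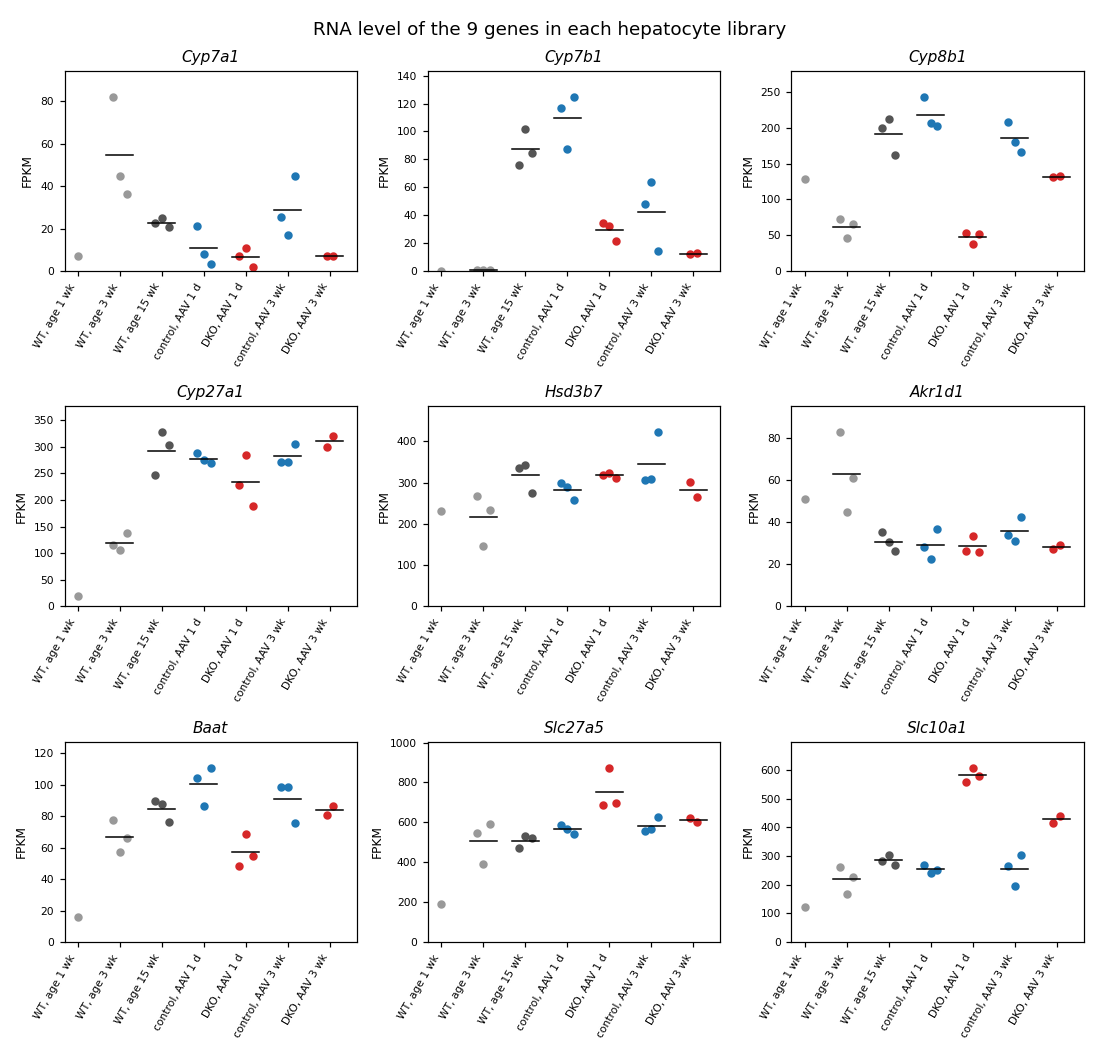
RNA level of each of the 9 genes (FPKM, linear axis from 0) in every hepatocyte library. Each point is 1 library, the line is the group mean, and AAV gives the age at injection. In DKO injected at 1 day Cyp8b1, Cyp7b1 and Baat sit below all their controls and Slc10a1 above them.

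Deletion at 1 day was compared with injected controls to ask which bile acid genes need Tet2 and Tet3 from birth on for their adult level. Cyp8b1, Cyp7b1 and Baat fell and Slc10a1 rose, while Cyp7a1, Cyp27a1, Hsd3b7, Akr1d1 and Slc27a5 did not pass the test. These are 3 genes lower of 9, where 15.6% of the 11166 genes tested fell, and 1 gene higher, where 4.33% rose. The median change of the 9 genes was -0.27 on the log2 scale, against -0.11 over all genes tested. Over all genes 1745 fell and 483 rose, and after centring each library on its median, which removed a shift of -0.18, 1168 fell and 1709 rose. The 4 calls held after centring. In bulk samples, fewer cells of a type and less RNA per cell cannot be told apart.

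Cyp8b1 had 243, 207 and 203 FPKM in controls injected at 1 day and 53.0, 38.2 and 52.1 FPKM in DKO. Every DKO library was far below every control, with means of 47.8 ± 8.32 and 218 ± 22.2 FPKM (SD, n = 3 each). On the log2(FPKM + 1) scale it fell by 2.18 (SE 0.177, 95% interval -2.56 to -1.80, limma adjusted p = 3.3e-06), which is 4.52-fold lower.

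Cyp7b1, the oxysterol hydroxylase, had 116, 87.6 and 125 FPKM in the controls and 34.3, 32.1 and 21.5 FPKM in DKO. The groups did not overlap, and the fall of 1.88 (SE 0.384, limma adjusted p = 0.0054) was 3.68-fold. Its partner in the alternative route, Cyp27a1, had 288, 275 and 270 FPKM in controls and 228, 284 and 188 FPKM in DKO, so that the groups overlapped (-0.27, 95% interval -0.60 to 0.06, adjusted p = 0.226).

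The conjugating enzymes differed from each other. Baat had 104, 86.4 and 111 FPKM in controls against 48.5, 69.0 and 55.0 FPKM in DKO, a fall of 0.80 (SE 0.159, limma adjusted p = 0.0045), or 1.74-fold. Slc27a5, the bile acid CoA ligase, had 585, 565 and 544 FPKM in controls and 688, 873 and 695 FPKM in DKO. All DKO values were above all control values, but the difference of 0.41 (SE 0.149) did not pass the threshold (adjusted p = 0.0707). It passed when libraries were centred on their median, at 0.58 (adjusted p = 0.00236).

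Slc10a1 had 269, 241 and 252 FPKM in the controls and 558, 608 and 579 FPKM in DKO. All DKO values were above all controls, and it rose by 1.19 on the log2 scale (SE 0.167, 95% interval 0.83 to 1.55, limma adjusted p = 0.00038), or 2.29-fold. The uptake carrier thus moved in the opposite direction from Cyp8b1, Cyp7b1 and Baat.

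Cyp7a1, the pace-setting enzyme, varied widely within groups. It had 21.0, 7.99 and 3.50 FPKM in controls injected at 1 day and 7.02, 10.7 and 1.75 FPKM in DKO, with no separation (-0.60, 95% interval -1.83 to 0.64, adjusted p = 0.498). Hsd3b7 (+0.18, adjusted p = 0.556) and Akr1d1 (-0.02, adjusted p = 0.98) also did not pass, and the Akr1d1 interval ran from -0.48 to 0.45. Cyp7a1 transcription is known to follow the time of day, and the labels do not give the time of collection. Of 11 circadian genes tested, none was called after deletion at 1 day, but Dbp alone ranged from 1.13 to 19.5 FPKM among these controls. The part of collection time in the spread of Cyp7a1 was not tested.

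**Figure D2:**
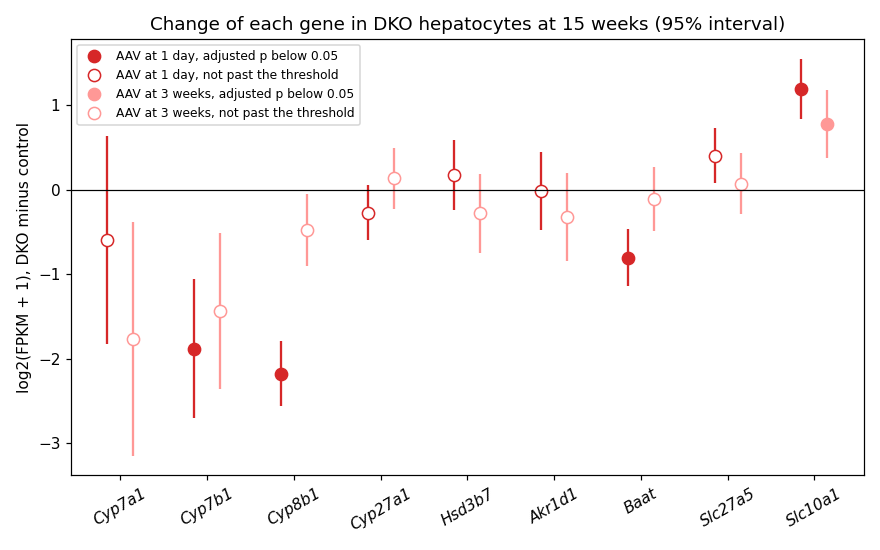
Change of the 9 genes in DKO hepatocytes at 15 weeks (log2 of FPKM + 1, DKO minus control) after injection at 1 day or 3 weeks. Bars are 95% intervals of the limma fit, and filled points passed an adjusted p below 0.05. Cyp8b1 lies at -2.18 after injection at 1 day and at -0.48 after injection at 3 weeks.

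After deletion at 3 weeks only Slc10a1 passed the test. It is 1 of 9 genes higher, where 0.905% of the genes tested rose, and none of the 9 was lower, where 4.34% fell. Over all genes 101 rose and 485 fell, and after centring 642 and 496. Slc10a1 had 264, 195 and 302 FPKM in controls injected at 3 weeks and 416 and 440 FPKM in DKO, and both DKO values were above all controls. It rose by 0.77 on the log2 scale (SE 0.187, limma adjusted p = 0.0341), or 1.71-fold. The call was lost when any 1 of the first 2 controls or either DKO library was left out (adjusted p from 0.0715 to 0.274), when only these groups entered the fit (0.116), and without the filter on low values (0.0557).

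Cyp7b1 had 47.9, 63.7 and 14.3 FPKM in controls injected at 3 weeks and 12.3 and 12.7 FPKM in DKO. The lowest control is the one with Xist, and the difference of -1.43 (SE 0.429) did not pass with it included (adjusted p = 0.0657). Without that control Cyp7b1 fell by 2.06 (limma adjusted p = 0.000258). In this one library the 8 male-biased liver genes summed to 179.9 FPKM, and 6921 FPKM was the highest sum in the group.

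Cyp7a1 had 25.2, 16.7 and 44.97 FPKM in these controls and 7.27 and 7.06 FPKM in DKO. The groups did not overlap, but the difference of -1.77 had an SE of 0.643 and did not pass (adjusted p = 0.11). In the same libraries 2 circadian genes changed, Dbp from 0.802 ± 0.427 to 17.6 ± 9.87 FPKM and Arntl, which encodes the clock factor BMAL1, from 7.43 ± 1.61 to 2.03 ± 0.976 FPKM (n = 3 and 2). Their part in the Cyp7a1 values was not tested. Cyp8b1 had 209, 181 and 167 FPKM in controls and 132 and 133 FPKM in DKO (-0.48, adjusted p = 0.153), and the other 5 genes were within 0.32 of zero.

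The effect of the age at deletion differed for Cyp8b1. The change after injection at 1 day was lower than that after injection at 3 weeks by 1.70 on the log2 scale (SE 0.266, 95% interval -2.27 to -1.13, limma adjusted p = 0.0080), the only member called of 9, where 5.36% of all genes were called in either direction (260 higher and 339 lower, and 1086 and 1069 after centring). Without the second DKO injected at 3 weeks the adjusted p was 0.0543. For Slc10a1 the difference between the effects was 0.42 (95% interval -0.12 to 0.96, adjusted p = 0.278), for Cyp7b1 -0.45 (adjusted p = 0.635), for Baat -0.69 (adjusted p = 0.0832) and for Cyp7a1 1.17 (adjusted p = 0.381). The interval of Cyp7a1, -0.69 to 3.02, is the widest of the 9 genes and includes differences in either direction.

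The virus and its injection were checked by comparing controls injected at 1 day with uninjected WT of 15 weeks. None of the 9 genes, and 0 of 11166 overall (0%), was called, although 855 genes had an unadjusted p below 0.05, and other limma fits called 0 to 29 genes. Cyp7a1 was the member furthest from zero (-1.31, adjusted p = 0.622), at 22.5, 25.0 and 20.9 FPKM in uninjected WT, and the other 8 differed by at most 0.32.

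The postnatal course of the genes was followed in uninjected WT mice. Between 3 and 15 weeks Cyp7b1, Cyp8b1, Cyp27a1 and Hsd3b7 rose and Akr1d1 fell, 4 and 1 of 9 genes, where 24.0% of all genes rose and 9.32% fell (2678 and 1041 genes, or 1535 and 2415 after centring). Cyp7b1 had 0.778, 0.647 and 0.836 FPKM at 3 weeks and 75.9, 102 and 84.4 FPKM at 15 weeks. It went from near zero to an abundant transcript, a rise of 5.65 on the log2 scale (SE 0.384, limma adjusted p = 1.4e-07), or 50.1-fold. Cyp8b1 went from 73.2, 46.3 and 65.4 to 199, 212 and 162 FPKM (3.10-fold, adjusted p = 1.3e-05) and Cyp27a1 from 115, 106 and 137 to 247, 327 and 302 FPKM (2.44-fold, adjusted p = 2.9e-05). Akr1d1, the steroid 5-beta-reductase, went from 82.7, 44.8 and 61.2 down to 35.3, 30.6 and 26.4 FPKM (-0.98, adjusted p = 0.0037). The 3 libraries of 3 weeks had Xist and those of 15 weeks did not, and 7 of 8 male-biased genes were higher at 15 weeks, so sex and age cannot be told apart here. All 6 endothelial and all 5 Kupffer markers tested were lower at 15 weeks, and their part in these results was not tested.

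Against the single library of 1 week, which like the adult libraries had Y-linked transcripts, 6 of 9 genes were higher by at least 1 log2 unit in every 15 week library, where 5.74% of all genes were. Cyp7b1 had 0.249 FPKM at 1 week and was 70.3-fold higher at 15 weeks on this scale, and Cyp27a1 had 20.0 FPKM and was 13.9-fold higher. Baat had 15.8 FPKM at 1 week and was 2.35 log2 units higher at 15 weeks, Cyp7a1 had 7.05 FPKM and was 1.56 higher, Slc27a5 had 189.7 FPKM and was 1.41 higher, and Slc10a1 had 123 FPKM and was 1.20 higher. Cyp8b1 (128 FPKM at 1 week and 0.56 log2 units higher at 15 weeks), Hsd3b7 (231 FPKM) and Akr1d1 (50.9 FPKM) did not meet the rule. With 1 library at 1 week there is no test.

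In DKO injected at 1 day the level of Cyp7b1 lay between those of WT mice of 3 and 15 weeks. Its mean of 29.3 ± 6.83 FPKM in DKO injected at 1 day was below the 87.4 ± 13.2 FPKM of adult WT and above the 0.754 ± 0.0970 FPKM of WT at 3 weeks. Cyp8b1 in the same DKO, at 38.2 to 53.0 FPKM, overlapped the range of WT at 3 weeks, 46.3 to 73.2 FPKM. It was below the 128 FPKM of the single WT library of 1 week. Slc10a1 in DKO, at 558 to 608 FPKM, lay above every WT library of any age, of which the highest was 303 FPKM. These levels are set side by side without a test. All WT libraries of 3 weeks had Xist, while the DKO and the WT library of 1 week had Y-linked transcripts.

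The other bile acid genes also changed in both directions after deletion at 1 day. Of 13 further synthesis and side-chain enzymes tested, 1 rose and 5 fell, and the counts of these lists stand beside 4.33% of all genes that rose and 15.6% that fell. Cyp39a1, a 24-hydroxycholesterol 7-alpha-hydroxylase, rose from 7.44 ± 0.761 to 22.6 ± 1.83 FPKM (1.48 on the log2 scale), and Akr1c6 (-1.49), the peroxisomal carrier Scp2 (-0.86), the racemase Amacr (-0.83) and the peroxisomal enzyme Hsd17b4 (-0.64) were among those that fell. Of 15 transporters, 1 rose, the sterol exporter subunit Abcg5 (0.87), and 4 fell. These 4 were Slc10a2 (-2.38), the carrier related to Slc10a1 that serves ileum and bile duct, and the organic anion carriers Slco2b1 (-1.15), Slco1a1 (-0.69) and Slco1b2 (-0.64). Slc10a2 and Slc10a1 thus changed in opposite directions in the same libraries. Among 20 regulators none rose and 6 fell, including the nuclear receptors Nr1i3, also called CAR, from 31.7 ± 1.16 to 1.93 ± 0.165 FPKM (-3.48), Nr5a2 (-0.72), Hnf4a (-0.64) and Nr1h3 (-0.44) and the factor Cebpb (-0.89).

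After deletion at 3 weeks, where 0.905% of all genes rose and 4.34% fell, 1 of 13 enzymes rose, again Cyp39a1 (1.09), and 2 of 15 transporters fell, Slc10a2 (-1.95) and Slc10a5 (-1.13). Of the 20 regulators 3 fell, among them Fgfr4 (-0.80), the receptor through which intestinal FGF15 restrains Cyp7a1, and Nr5a2 (-0.69). The squalene epoxidase Sqle (-1.18) and the lanosterol synthase Lss (-0.80) fell as well. In WT between 3 and 15 weeks, where 24.0% of all genes rose and 9.32% fell, 8 of 13 further enzymes rose and 2 fell, 7 of 15 transporters rose and 3 fell, 5 of 20 regulators rose and 1 fell, and 10 of 13 genes of cholesterol synthesis and uptake rose and 1 fell. Libraries of DKO injected at 1 day also had less Elovl3 (-3.57) and Hsd3b5 (-2.76), although all of them carry Y-linked transcripts. These were 2 of 8 male-biased genes tested, where 15.6% of all genes fell, and 0 of the 8 rose. The median change of this list was -0.32. Its member Cyp4a12a, not called, had 238, 243 and 247 FPKM in controls and 461, 462 and 368 FPKM in DKO. The erythroid list summed to 52.7 to 70.6 FPKM in controls injected at 1 day and 12.0 to 15.2 FPKM in DKO. Of its 5 genes tested 1 fell, Alas2, from 58.3 ± 10.7 to 12.6 ± 1.54 FPKM, where 15.6% of all genes fell. The median change of these 5 genes was 0 on the log2 scale. The part of these differences in the bile acid genes was not tested.

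Methylation around the 9 genes was then followed by WGBS, as the percent of methylated CpG readings in 200 bp tiles, in 1 library each of newborn WT (1 week), adult WT and DKO injected at 1 day. Of 1279 tiles at the 9 genes, 188 (14.7%) were at least 35 points lower in adult than in newborn, and 3 were higher. This compares with 1.63% of all tiles and 3.27% of the tiles at the genes tested for expression. In DKO 212 tiles (16.6%) were at least 35 points above adult, against 1.98% of all tiles and 4.72% of tiles at tested genes. The depth of each tile is unknown and with 1 library per group there is no test.

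In DKO the tiles that were lower in adult had the level of newborn. Over the 188 tiles, mean methylation was 75.4% in newborn, 20.3% in adult and 75.1% in DKO. Of them 172 (91.5%) were also at least 35 points higher in DKO than in adult, and since the same adult library enters both differences this share is a description. It was 84.8% for tiles at all tested genes. Slc10a1 had the largest share of tiles lower in adult (36 of 93, 38.7%), followed by Cyp8b1 (20 of 54, 37.0%) and Slc27a5 (23 of 75, 30.7%). Cyp27a1 had 28 of 134, Baat 14 of 79, Cyp7a1 12 of 69, Akr1d1 20 of 186 and Hsd3b7 5 of 59, and Cyp7b1, the longest gene, had 30 of 530 (5.66%). The 2 genes with the largest shares differed in RNA, since Slc10a1 rose and Cyp8b1 fell after deletion at 1 day.

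The starts of the genes were unmethylated at all ages. The tile at the start held 0 to 7.69% in newborn, 0 to 6.63% in adult and 0.652 to 13.3% in DKO for 8 of the 9 genes. The exception was Slc27a5, whose start tile had 40.0% in newborn, 0% in adult and 40.0% in DKO. Of the 188 tiles lower in adult, 122 lay inside the genes, 33 before the start and 33 past the end. Past the end were 12 of the 20 at Cyp8b1, 9 of the 36 at Slc10a1 and 6 of the 12 at Cyp7a1. The longest stretch ran over 1600 bp at the end of Cyp8b1 and beyond (chr9:121822001-121823600), where 8 tiles averaged 65.6% in newborn, 13.1% in adult and 71.6% in DKO. At Slc27a5 a stretch of 1400 bp upstream of the start, from -1659 to -260 bp (chr7:13583801-13585200) had 80.8%, 4.69% and 76.4%. At Baat 600 bp upstream of the start (chr4:49519801-49520400) had 60.8%, 0.855% and 71.0%, in Slc10a1 an intragenic stretch of 800 bp (chr12:82064401-82065200) had 66.7%, 9.58% and 78.8%, and upstream of Cyp7b1 800 bp (chr3:18146001-18146800) had 89.4%, 27.3% and 86.4%.

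The tiles with the deepest loss at 3 of these genes are printed because each was at 0% in the adult library and above 70% in both others. They are read from the mm9 genome on the plus strand, in lower case with each CpG in capitals. The tile of deepest loss at Cyp8b1 (chr9:121822201-121822400) also met this, at 95.8% newborn, 0% adult and 71.4% DKO, and is not printed.
Slc27a5, chr7:13584601-13584800, -1159 bp from the start, 95.5% newborn, 0% adult, 71.1% DKO: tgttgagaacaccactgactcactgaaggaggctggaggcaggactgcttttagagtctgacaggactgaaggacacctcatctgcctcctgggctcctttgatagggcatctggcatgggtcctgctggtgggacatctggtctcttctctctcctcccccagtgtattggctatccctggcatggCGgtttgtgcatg
Baat, chr4:49520201-49520400, -870 bp from the start, 88.0% newborn, 0% adult, 80.3% DKO: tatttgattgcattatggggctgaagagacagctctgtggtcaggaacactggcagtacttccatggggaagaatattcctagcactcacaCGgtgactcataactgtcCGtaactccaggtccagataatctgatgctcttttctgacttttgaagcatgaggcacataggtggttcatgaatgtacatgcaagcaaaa
Slc10a1, chr12:82064401-82064600, 4566 bp downstream of the start, 75.0% newborn, 0% adult, 81.3% DKO: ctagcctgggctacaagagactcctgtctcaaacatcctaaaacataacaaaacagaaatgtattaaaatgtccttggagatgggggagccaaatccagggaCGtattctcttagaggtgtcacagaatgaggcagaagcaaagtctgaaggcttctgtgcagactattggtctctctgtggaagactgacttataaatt
The Slc27a5 and Slc10a1 tiles hold 1 CpG each and the Baat tile holds 2, so each value rests on 1 or 2 sites.

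Most of these tiles overlapped peaks of histone marks that are known from enhancers. Of the 188 tiles, 148 (78.7%) overlapped an H3K4me1 peak and 129 (68.6%) an H3K27ac peak of WT hepatocytes, and 60 (31.9%) overlapped a 5hmC peak of WT hepatocytes of 20 days. For all tiles of the genome with the same loss these shares were 54.6%, 34.1% and 19.8%. Among the 1091 other tiles at the 9 genes they were 41.1%, 24.7% and 14.7%. Open chromatin was rarer, with 13 tiles (6.92%) in an ATAC-Seq peak. This compares with 8.75% of all such tiles and 3.6% of the other tiles at the 9 genes. HNF6 peaks overlapped 9 tiles (4.79%), against 2.18% of all such tiles and 1.10% of the other tiles at the 9 genes.

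RRBS, which reads CpG sites near restriction sites, gave percent methylation of 100 bp tiles in individual libraries. Whether the WGBS mice are among the RRBS mice is not given by the labels. Of 127 tiles at the 9 genes, 58 had a value in all controls and DKO injected at 1 day, and 6 of these rose by at least 35 points and passed the test, where 1.22% of all 460676 tiles did. After deletion at 3 weeks 1 of 55 rose, against 0.299%. No difference between the 2 deletion ages was called at 47 tiles, where 0.151% of all tiles were. Baat had 2 tiles, neither with the values needed. Averaged over the 58 tiles, DKO injected at 1 day had 69.0% ± 0.276 (SD, n = 2) and controls 51.9% ± 1.75 (n = 3), with no overlap. For the 3 week deletion the means were 67.3% ± 0.585 (n = 2) and 57.2% ± 1.54 (n = 3). The two-sided exact permutation test gave p = 0.2 for both, the smallest that 2 against 3 mice allow. By gene, the gap after deletion at 1 day was widest at Slc27a5 (85.2% against 42.4%) and also seen at Cyp7a1 (93.3% against 64.0%), Cyp8b1 (83.9% against 55.8%) and Slc10a1 (39.8% against 18.8%), while Akr1d1 overlapped (75.3% against 71.7%). The Slc10a1 mean covers 7 tiles. The 2 called among them lie in exons of the neighbouring gene Srsf5, and no other was 35 points higher in DKO.

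The upstream region of Cyp7b1 had the largest gap. The tile at -3112 bp from the start (chr3:18146401-18146500) held 1.80%, 0.943% and 1.26% in controls injected at 1 day and 82.0% and 96.6% in DKO, a difference of 88.0 points that did not pass over all tiles (limma adjusted p = 0.062). The next tile, at -3212 bp, held 5.56%, 2.27% and 1.41% in controls and 81.6% and 88.9% in DKO, 82.2 points higher (limma adjusted p = 0.0127). After injection at 3 weeks it held 0%, 2.04% and 42.5% in controls and 100% in both DKO, 85.2 points higher (limma adjusted p = 0.0305), a call that was lost when only these groups were fitted (adjusted p = 0.334) or when any 1 library but the third control was left out (0.0728 to 0.1). The third control, at 42.5%, is the mouse with Xist. In the first of these tiles that mouse had 73.9%, and the other controls of the group had 6.59% and 0%. The WT mice of 3 weeks, which also had Xist, held 97.3% and 85.7% there. The same control had the lowest Cyp7b1 RNA of its group, 14.3 FPKM, so that low RNA and high methylation of this region occurred together in it as in DKO. Among WT and control mice with both readouts, the 3 with Xist held 42.5 to 97.3% in these tiles and the other 5 held 0 to 6.59%. Both WT mice of 3 weeks are among the 3, and in them age and sex cannot be told apart.

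The called Cyp7b1 tile is printed with each CpG in capitals, on the plus strand of mm9, because it changed after both deletions.
Cyp7b1, chr3:18146501-18146600, intergenic: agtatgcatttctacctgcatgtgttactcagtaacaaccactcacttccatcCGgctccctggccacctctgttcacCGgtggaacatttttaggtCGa
It has 3 CpG sites, and all of its 16 stretches of 25 bases occur once in the genome.

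A coding-exon tile of Cyp8b1 (chr9:121824001-121824100, 1373 bp downstream of the start of this single-exon gene) held 2.86%, 10.2% and 0% in controls injected at 1 day and 53.7% and 66.7% in DKO, 55.8 points higher (limma adjusted p = 0.0155). WT mice of 3 weeks held 34.4% and 48.3%, and fat and neutrophils 100% and 95.2%. After injection at 3 weeks the controls held 0%, 12.5% and 3.77% and the DKO 55.8% and 21.4%, above them but not called. The call after the 1 day deletion was lost when only these groups were fitted (adjusted p = 0.0541). The tile is printed for its 4 CpG sites within coding sequence.
Cyp8b1, chr9:121824001-121824100, coding exon: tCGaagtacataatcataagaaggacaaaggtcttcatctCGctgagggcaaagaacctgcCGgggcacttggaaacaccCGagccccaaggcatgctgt
In Slc27a5 a tile at the edge of an exon (chr7:13581701-13581800) held 0% in all 3 controls and 77.3% and 51.6% in DKO, 64.4 points higher (limma adjusted p = 0.0033). An intronic tile 200 bp nearer to the start (chr7:13581901-13582000) held 3.97%, 3.17% and 12.2% in controls and 82.4% and 90.5% in DKO, 80.0 points higher (limma adjusted p = 0.0017). The second tile is repetitive, since 6 of its 16 stretches of 25 bases occur once and another occurs 5053 times in the genome, and its values are uncertain. At Slc10a1 both called tiles, at 43.9 and 58.6 points, lie in exons of the neighbouring gene Srsf5, and most of their stretches occur at a second place in the genome.

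**Figure D3:**
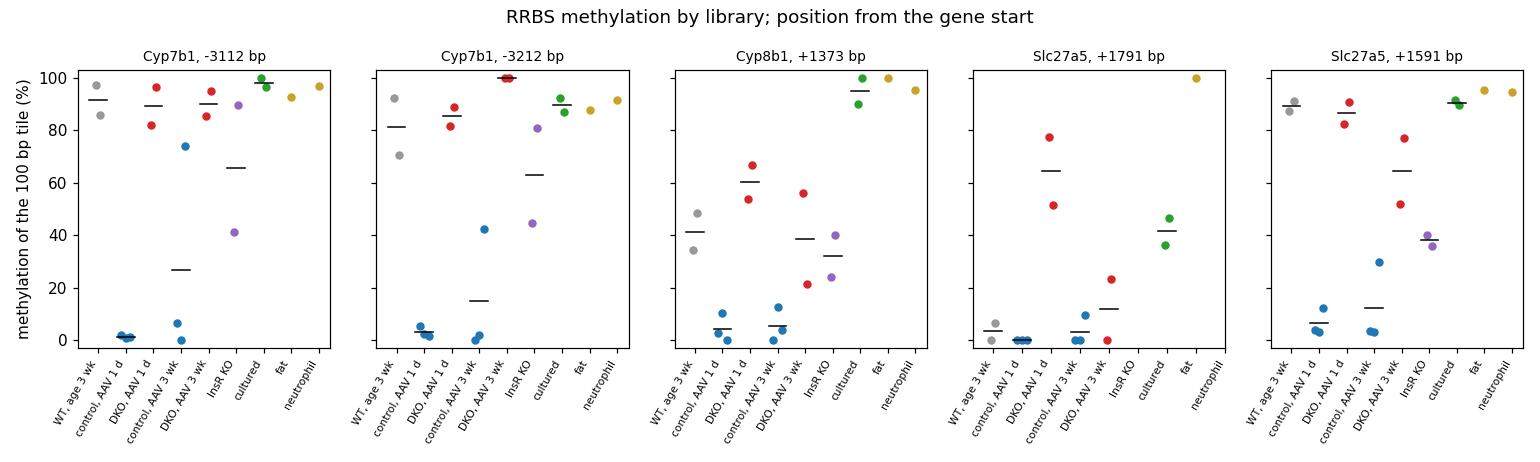
RRBS methylation (percent) of 5 tiles of 100 bp at Cyp7b1, Cyp8b1 and Slc27a5 in each library, with the position from the gene start above each panel. Each point is 1 library and the line is the group mean. Controls injected at 1 day lie at 0 to 12.2% and DKO injected at 1 day at 51.6 to 96.6%.

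Other hepatocyte conditions were compared at the same tiles. From 3 weeks to controls of 15 weeks 1 of 55 tiles fell, the intronic Slc27a5 tile, from 87.2% and 91.1% by 82.7 points (limma adjusted p = 0.0089), where 0.209% of all tiles fell. Averaged over the tiles, methylation was 71.0% ± 0.237 at 3 weeks (n = 2) and 56.4% ± 1.90 in the controls (n = 3, exact permutation p = 0.2). In mice without the insulin receptor in hepatocytes (InsR KO) 0 of 38 tiles were called, where 0.414% of all tiles were, and the mean was 68.5% ± 2.00 (n = 2) against 61.5% ± 1.83 in controls (n = 3, exact permutation p = 0.2). The called Cyp7b1 tile held 44.4% and 81.0% in InsR KO, above all 3 controls, but the difference of 59.6 points did not pass (adjusted p = 0.098). In hepatocytes of 1 week mice grown in culture 0 of 42 tiles differed from WT of 3 weeks, where 0.352% of all tiles did, with means of 80.4% ± 1.37 and 76.8% ± 1.66 (n = 2 each, exact permutation p = 0.333, the smallest possible). In culture the Cyp7b1 tiles held 86.8 to 100%. The RRBS mice of 3 weeks carry the animal numbers of RNA libraries with Xist and the controls injected at 1 day those of libraries without it, so age and sex cannot be told apart between them. For InsR KO and cultured hepatocytes the sample labels give no sex, and the methylation tables hold no tiles of the sex chromosomes.

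Accessible chromatin was profiled by ATAC-Seq and binding of HNF6, the liver transcription factor encoded by Onecut1, by ChIP-Seq, in 2 WT and 2 DKO livers each. The libraries were uneven. The second DKO library of HNF6 had 34665 peaks and 5.58% of its tags in peaks, against 4387 to 9355 peaks and 0.33 to 1.05% in the other 3. Among the ATAC libraries the first WT had 0 peaks on the Y chromosome and 991 on the X chromosome, where the other 3 had 51 to 81 and 1669 to 1821. Peak heights are given as tags scaled to a common library total. Onecut1 RNA had 3.73, 9.76 and 0.714 FPKM in controls injected at 1 day and 46.2, 14.02 and 15.6 FPKM in DKO. Every one of these DKO values was above every control, while after injection at 3 weeks the groups overlapped. The part of this RNA difference in the HNF6 regions below was not tested.

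At the 9 genes 35 HNF6 regions were found, 11 of them in all 4 libraries. One was present in both WT and neither DKO library, where 0.507% of all regions were, and 3 were present in both DKO and neither WT library, where 7.26% were. The region found only in WT lies upstream of Cyp7b1, at -3022 bp from the start (chr3:18146223-18146497), with 10.9 and 8.57 tags, and overlaps the RRBS tile that held 0.943 to 1.80% in controls and 82.0% and 96.6% in DKO. It was missing in the second DKO library too, although that library had the most peaks of all. The 3 regions found only in DKO were at Hsd3b7, Akr1d1 and Baat. HNF6 bound 74284 bp downstream of the Cyp7b1 start in all 4 libraries, with 7.04, 12.2, 11.2 and 35 tags, and the region found only in WT was 1 of 6 at Cyp7b1. The highest region of the set was in Cyp27a1, 8404 bp downstream of the start, with 9.28 and 24.5 tags in WT and 24.3 and 67.7 in DKO. Slc27a5 had 3 regions, found in the second DKO library only.

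The upstream region of Cyp7b1 is printed as the only one found in both WT and neither DKO library, on the plus strand of mm9 with each CpG in capitals.
Cyp7b1, chr3:18146223-18146497: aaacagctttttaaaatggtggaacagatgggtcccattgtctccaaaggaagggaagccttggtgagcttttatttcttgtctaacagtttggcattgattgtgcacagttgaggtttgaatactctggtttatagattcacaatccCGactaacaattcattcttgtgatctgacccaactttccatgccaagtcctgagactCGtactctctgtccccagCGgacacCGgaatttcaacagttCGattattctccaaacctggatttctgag
The Cyp7b1 region holds 5 CpG sites and the sequence ATTGAT once, a core form of the HNF6 motif, which was searched on both strands as ATTGAT and its reverse complement ATCAAT. In windows of 275 bp, 73.8 to 79.1% of the peaks of the 4 HNF6 libraries held the motif on either strand, against 13.5% of 4118 windows spread over the genome. All stretches of 25 bases of the Cyp7b1 region occur once in the genome.

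ATAC-Seq gave 42 regions at the 9 genes, 19 of them in all 4 libraries. None was found in both WT and neither DKO library, where 2.96% of all regions were, and 1 was found in both DKO and neither WT library, where 5.04% were. This region lay 103338 bp downstream of the Cyp7b1 start, with 5.74 and 4.32 tags. No ATAC region covered the HNF6 region upstream of Cyp7b1. The nearest, at -2014 bp, had 3.99 and 8.40 tags in WT and 4.82 in 1 DKO library. The start of Hsd3b7 was open in all 4 libraries (19.2 and 11.7 tags in WT, 8.65 and 17.0 in DKO), as was that of Cyp7a1 (4.19 and 8.59 in WT, 9.95 and 11 in DKO). At Cyp8b1 there were 2 regions, each in 1 library.

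Histone marks were measured in 1 WT and 1 DKO library, so the values below compare 2 libraries only. H3K27ac had 24.7% of tags in peaks in WT and 34.3% in DKO, and the part of this difference in each value below was not tested. Cyp7b1 had fewer peaks in DKO, with 17 H3K27ac peaks covering 16260 bp and 351 tags in WT and 7 peaks covering 6936 bp and 221 tags in DKO. Per kilobase covered it had 21.6 tags in WT and 31.8 in DKO, so that the covered length was lower and the tags per kilobase were not. H3K4me1 at Cyp7b1 also went from 21 peaks and 43981 bp to 11 peaks and 21840 bp, with 23.1 and 25.4 tags per kilobase. At Cyp8b1, whose RNA fell, the summed H3K27ac tags were higher in DKO (948 tags over 16781 bp in WT, 1757 over 28597 bp in DKO). Those of H3K4me1 were lower (452 tags over 16611 bp in WT, 218 over 9705 bp in DKO). Per kilobase covered, Cyp8b1 had 56.5 and 61.4 H3K27ac tags and 27.2 and 22.4 H3K4me1 tags. Peaks were counted whole, also where they ran past the 5 kb limit. At Slc10a1, whose RNA rose, H3K27ac had 1062 tags in WT and 1561 in DKO over nearly equal lengths, 20183 and 20741 bp. At Baat, whose RNA fell, H3K27ac had 618 tags over 14996 bp in WT and 675 over 20877 bp in DKO, or 41.2 and 32.3 tags per kilobase. Over all 9 genes 50 H3K27ac regions were found, 24 in both libraries, 14 in WT only and 12 in DKO only, and 41 H3K4me1 regions, 22 in both, 16 in WT only and 3 in DKO only. Most of the regions in WT only, for both marks, lay at Cyp7b1, which spans 171389 bp. Over the whole genome 24.9% of H3K27ac regions were in WT only and 31.9% in DKO only, and for H3K4me1 16.5% and 24.3%. In WT hepatocytes of 20 days 62 5hmC peaks lay at the 9 genes, from 1 at Hsd3b7 to 19 at Cyp7b1.

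The genes whose RNA pattern over the 18 libraries was most like that of each member were found by the Pearson correlation of log2(FPKM + 1), as a description only, since the libraries share groups. For Cyp7b1 they were the complement gene C6 (r = 0.963) and the urinary protein gene Mup6 (0.958), and for Cyp8b1 the biliverdin reductase gene Blvrb (0.945) and 2010003K11Rik (0.944). Cyp27a1 was most like the P450 gene Cyp4f14 and the transporter gene Abcc3 (both 0.965), and Baat was most like Pls3 (0.957) and Slco2b1 (0.941). Slc10a1 was most like the P450 genes Cyp3a57 (0.933) and Cyp3a25 (0.925), and Slc27a5 like Gm4788 (0.933) and Apoc3 (0.913). Hsd3b7 was most like Acvr2a (0.936) and Mbtps2 (0.925), Akr1d1 like Bckdhb (0.921) and Dnajc30 (0.915), and Cyp7a1 like Enpp1 (0.817) and Ang (0.814), the lowest values of the set. Among the 9 genes themselves the highest values were those of Cyp27a1 with Baat (0.868) and with Slc27a5 (0.818), and Cyp7b1 with Akr1d1 had the lowest (-0.755).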

How the data were processed

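RNA-Seq, RRBS, WGBS, ATAC-Seq, ChIP-Seq and 5hMeDIP-Seq files of mouse liver and hepatocytes (build mm9) were used as deposited. The authors made the FPKM values with TopHat2 and Cufflinks. The authors made the methylated fraction per tile with BSMAP 2.74 (Trim Galore 0.3.3), with a minimum coverage, and the tables give no coverage, so the depth behind each value is unknown. The authors called peaks in each library with HOMER (cutadapt 1.15, Bowtie2 2.2.4), and per the file headers the peak score and the normalized tag signal were scaled to a common total.

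Fractions were multiplied to percent. Of the columns, 49 whose names fit no single group were not used. RRBS columns carry animal numbers and took their group from the same numbers in the expression table. Genes that averaged 1 FPKM or more in any condition were tested on log2(FPKM + 1) with limma 3.58.1 (R 4.3.3), since CuffDiff needs reads, with all 18 libraries in 1 fit and Benjamini-Hochberg adjustment over all genes. Fold changes are on this scale and understate those of low genes. RRBS tiles with values in all compared libraries were tested the same way on percent, and a call also needed 35 points. Columns of a group carry different animal numbers and were treated as separate mice. Every adjusted p in the text is from limma. The fit was tested on simulated data with genes changed by 2 log2 units. For the deletion at 1 day it found 195 of 200 changed genes with 13 false ones (10243 genes). For that at 3 weeks it found 189 with 5 false. With RRBS tiles moved by 50 points it found 191 of 200 changed tiles with 2 false of 20000. The moved tiles were of lower methylation and had a value in every library. Recovery of smaller changes was not tested.

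The 9 genes, all gene lists and the tests were chosen with earlier results of these data known. Named genes are the 9 members, up to 5 called genes per list and comparison by size of change, 2 genes most like each member, up to 2 called RRBS tiles per member and comparison, the WGBS tiles of largest change and the highest or genotype-specific peaks. RRBS tiles outside this rule that lie next to a called tile were named after their values were seen, as were Cyp4a12a and Onecut1. The comparison of mice with and without Xist was also added then. Promoter and protein sequences were not used here. A few genes and 1 sequence that the rule names are not reported here. Genome sequence and gene models came from NCBIM37 (mm9) and GENCODE. Alternatives covered the pseudocount, filters, scaling, the libraries in the fit, thresholds, distance from the gene, peak score and overlap, and leaving out each library.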

Additional observations from a re-analysis of the deposited data

Results flagged for a closer look

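Cyp8b1, the enzyme that makes the cholic acid type of bile acid, had an effect of the deletion that differed with the age at injection. The change after injection at 1 day minus that after injection at 3 weeks was -1.70 on the log2(FPKM + 1) scale, with a 95% interval of -2.27 to -1.13 and a limma adjusted p of 0.0080 for the difference itself. All 3 DKO libraries injected at 1 day (38.2 to 53.0 FPKM) were below both DKO libraries injected at 3 weeks (132 and 133 FPKM), while the controls of the groups overlapped (203 to 243 and 167 to 209 FPKM). Without the second DKO injected at 3 weeks the adjusted p was 0.0543, and the value ranged from -1.79 to -1.55 when each library was left out in turn.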

How the results depend on the processing

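Between the compared groups no paired analysis was possible because the columns carry animal numbers and not the replicate numbers of the labels. Within a mouse the animal numbers link RNA to RRBS, as was used for the Cyp7b1 tiles. A higher coverage minimum was not run, since the tables hold no coverage. After deletion at 1 day the 4 called genes kept their call in all other settings and when each library was left out. After deletion at 3 weeks the count of called genes, 1, was 0 without the filter on low values and 0 with only the compared libraries, and ranged from 0 to 2 when each library was left out. The count for the difference between deletion ages, 1, was 2 after centring, with Baat added (adjusted p = 0.0446), and ranged from 0 to 2 when each library was left out. Hsd3b7 lost its call between 3 and 15 weeks after centring (adjusted p = 0.0618), with only the compared libraries (0.0629) and without 3 of the 6 libraries (0.0983 to 0.116), while Cyp7a1 gained one with only the compared libraries (-1.14, adjusted p = 0.000904). Uncalled values that changed sign after centring were Akr1d1 after deletion at 1 day (0.16) and Slc27a5 between 3 and 15 weeks (-0.21). When each library was left out, signs changed for Cyp7a1 (-1.14 to 0.008) and Akr1d1 (-0.18 to 0.15) after deletion at 1 day, Slc27a5 between 3 and 15 weeks (-0.17 to 0.14), Cyp27a1 (-0.18 to 0.02) and Akr1d1 (-0.26 to 0.075) between injected and uninjected mice, and Cyp7b1 for the difference between deletion ages (-0.86 to 0.18, the last without the third control injected at 3 weeks).

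The 6 RRBS tiles called after deletion at 1 day were 3 inside the genes and 3 with only the compared libraries, and 2 to 5 when each library was left out. The count of 1 after deletion at 3 weeks was 0 inside the genes, 0 with only the compared libraries and 2 with values asked for in 1 library of each group, and 0 to 3 when each library was left out. With values asked for in 1 library of each group the counts were also 1 in culture, 4 for controls against 3 weeks and 2 for the difference between deletion ages. Controls against 3 weeks gave 0 with only the compared libraries. Leaving out each library gave 0 to 1 for InsR KO, 1 to 2 for controls against 3 weeks and 0 to 1 for the difference between deletion ages. WGBS tiles lower in adult numbered 106 at 50 points and 122 inside the genes, against 188. With the higher scoring part of the peaks, ATAC regions of 1 genotype numbered 4 instead of 1, shared H3K27ac regions 12 instead of 24, shared H3K4me1 regions 14 instead of 22 and 5hmC peaks 29 instead of 62. ATAC regions of 1 genotype ranged from 2 to 9 and HNF6 regions of 1 genotype from 5 to 19 when each library was left out, the highest without the first DKO library. The upstream HNF6 region of Cyp7b1 was not counted among the higher scoring peaks, inside the genes or under the stricter overlap. The cause of these shifts was not tested.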
